A study of Ovis aries with 18 samples.

Results

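The genes described here are the cytokines, chemokines and their receptors on a sheep expression array that are not among the well known early products of TLR4 activation. They were chosen by name: a probe is a member if the symbol behind its RefSeq accession starts with IL and a digit, CCL, CXCL, CCR, CXCR, TNF, IFN or CSF, with 11 genes left out by the rule (IL1A, IL1B, IL6, IL10, IL12B, TNF, CSF2, CXCL1, CXCL8, CXCL10 and CXCL16). The rule itself uses no measured value. The rule gave 40 probes of 23 genes among 15008 non-control probes, with 2 probes for 17 of the genes and 1 probe for 6. Whole blood was drawn from 6 healthy adult female sheep, named 71Y, 51Y, 20, 170, 80 and 65Y, and blood of each animal was incubated for 90 minutes with PBS (the buffer control), with LPS (lipopolysaccharide, the TLR4 agonist of Gram-negative bacteria) or with MPLA (monophosphoryl lipid A, a detoxified derivative of LPS). Per the labels, 1 µg was used of LPS but 10 µg of MPLA, so that agonist and amount cannot be told apart between them. Each treatment had 6 arrays, 1 per animal, and both agonists were compared with the same 6 PBS arrays. In whole blood, fewer cells of a type and less RNA per cell cannot be told apart.

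Cytokines and chemokines are secreted proteins through which blood cells direct one another, and each acts only on cells that carry its receptor. TLR4 agonists act mainly on monocytes and neutrophils, which respond within the first hours with a small group of inflammatory cytokines, whereas most lymphocyte cytokines are made by T cells after antigen or cytokine stimulation. Receptors are often present on resting blood cells, ready to bind their ligand. The set holds 9 interleukin ligands (IL2, IL3, IL4, IL5, IL7, IL12A, IL13, IL15 and IL18), 3 interleukin receptor genes (IL2RA, IL21R and IL27RA), 2 chemokines (CCL25 and CXCL12), 4 chemokine receptors (CCR3, CCR9, CCR10 and CXCR4), 1 TNF receptor (TNFRSF1A), 2 interferons (IFNG and IFNT6) and both chains of the type I interferon receptor (IFNAR1 and IFNAR2). No colony-stimulating factor other than the one left out by the rule had a named probe.

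Values are log2 levels, that is log2 of the background-subtracted intensity minus log2 of the 75th percentile of the same array, so that 0 is the 75th percentile. Levels are compared between arrays for 1 probe and never between probes. Arrays differed in brightness, with 75th percentiles from 24.8 to 124.2 intensity units and 23.9% to 45.1% of the probes well above background, the scanner software's flag for a signal clearly over its local background. The lowest signal that carried this flag corresponded to a log2 level of -2.52 on the PBS array of animal 20 and of 0.18 on the PBS array of animal 170, so a dim member could be seen on some arrays and not on others. The first principal component of the tested probes held 40.1% of their variance. Its highest values were on the PBS and MPLA arrays of animal 71Y and its lowest on the PBS array of animal 170 and the MPLA array of animal 20. Arrays lay on 3 slides, each scanned apart, and the MPLA array of animal 170 was the 1 array on another slide than the rest of its animal. The T cell markers CD3D and CD3E, the monocyte markers CD14 and LYZ and the red cell gene HBB were well above background on all 18 arrays, as whole blood would hold. Other T cell markers were mostly not detected. CD247 was well above background on 1 PBS, 0 LPS and 1 MPLA array by each probe, and LCK on 1, 1 and 3. CD4, the monocyte receptor FCGR1A and ITGAM, the 1 neutrophil marker on the array, were well above background on 0. None of CD3D, CD3E, CD14, LYZ and HBB was called in any comparison.

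Most members were at or near the limit of detection. Of the 40 probes, 7 were well above background on all 18 arrays (17.5%, against 21.6% of all probes), 14 on some arrays and 19 on none (47.5%, against 45.8%). By gene, CCR3, IFNAR1, IFNAR2 and IL18 had a probe detected on all 18 arrays, 9 genes were detected on 1 to 17 arrays, and 10 genes on none. The number of member probes detected on an array ranged from 8, on the PBS arrays of animals 51Y and 170, to 18, on the PBS array of animal 20, which also had the largest share of all probes detected. Member probes detected on 6 of 6 arrays numbered 8 with PBS (20%), 10 with LPS (25%) and 7 with MPLA (17.5%). Over all probes the shares were 22.4%, 25.2% and 26.1%.

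**Figure D1:**
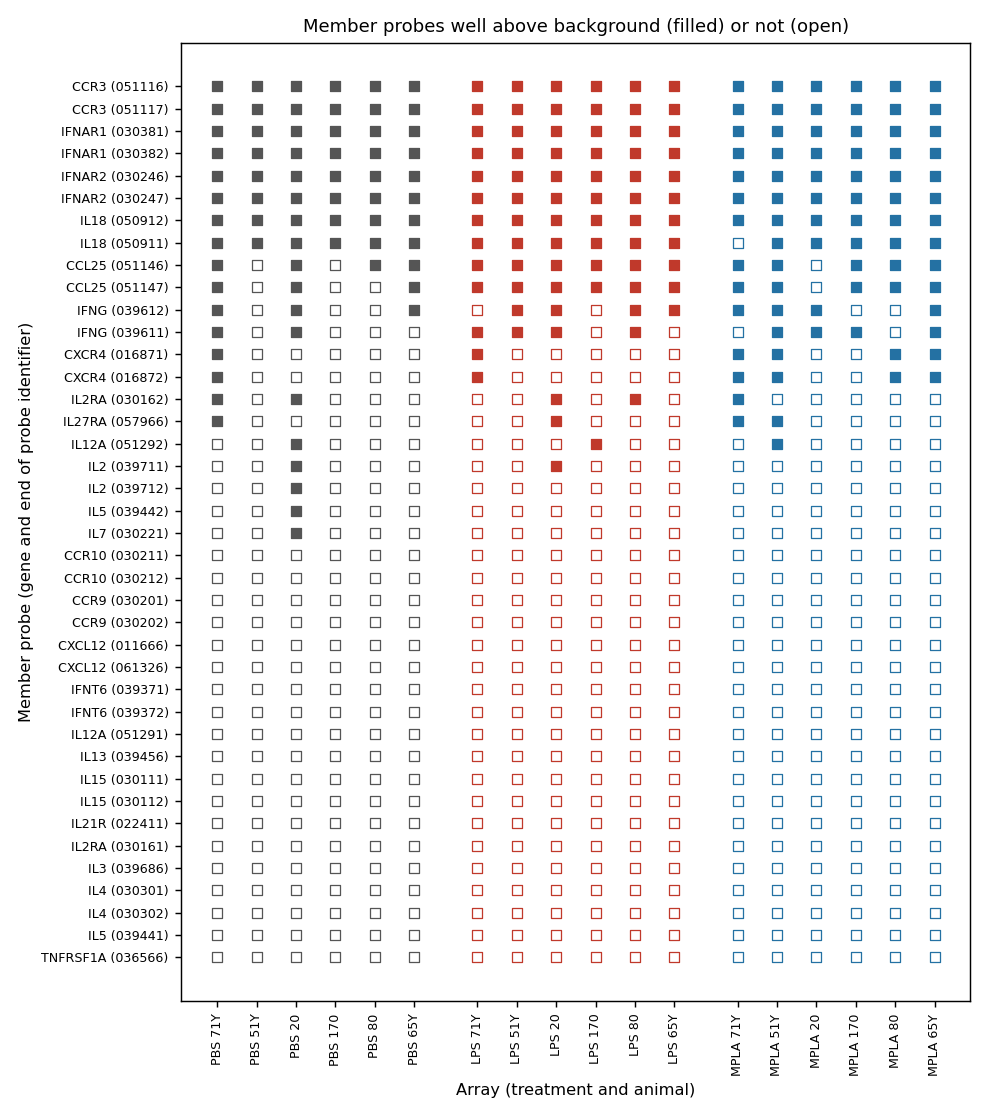
Each row is 1 of the 40 member probes and each column 1 of the 18 arrays, by treatment and animal; filled squares were well above background and open squares were not. The 7 rows at the top are filled on all 18 arrays and the 19 rows at the bottom on none.

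The 10 genes without a detected probe were the interleukins IL3, IL4, IL13 and IL15, the receptor IL21R, the chemokine CXCL12, the chemokine receptors CCR9 and CCR10, the interferon IFNT6 and the receptor TNFRSF1A. IL4 and IL13 are products of type 2 helper T cells and IL3 is a growth factor for basophils and mast cells. IL15 supports NK cells and memory T cells. IFNT6 belongs to the trophoblast interferons, by which the ruminant conceptus signals pregnancy, and its probes may bind near-identical copies of the same family. CCR9 and CCR10 guide lymphocytes to the gut and the skin, and TNFRSF1A is the main receptor for TNF. The 19 undetected probes were set to the software's floor, the lowest value it writes, on 7 to 18 arrays each, with a median of 12. The highest log2 level among them was -0.02, of CXCL12 on the PBS array of animal 170, where the limit of detection was 0.18. Their levels therefore have no order, and changes below the limit of detection could not be seen.

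A further group of interleukins and receptors was seen on a few arrays each. IL2, the T cell growth factor, was detected by probe A_70_P039711 on the PBS and LPS arrays of animal 20, at log2 levels of -2.52 and -2.31, and by probe A_70_P039712 on that PBS array at -1.93. The eosinophil growth factor IL5 (-2.44) and the lymphocyte survival factor IL7 (-2.28) were detected on the same PBS array of animal 20 and on no other. This array had the lowest limit of detection of the 18. IL12A, which encodes the p35 chain of interleukin 12, was detected by probe A_70_P051292 on 1 array of each treatment, at -0.93 in animal 20 with PBS, -0.66 in animal 170 with LPS and 0.41 in animal 51Y with MPLA. IL27RA, a chain of the interleukin 27 receptor, was detected on 1 PBS, 1 LPS and 2 MPLA arrays. IL2RA, the alpha chain of the interleukin 2 receptor and a marker of activated T cells, was detected by 1 of its 2 probes on 2 PBS, 2 LPS and 1 MPLA arrays. None of these probes was detected on 3 more or 3 fewer arrays of an agonist than of PBS.

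The first comparison asked which members changed with LPS within animals. A probe was tested when it was well above background on all 6 arrays of at least 1 treatment, which held for 10 member probes of 5 genes (CCR3, IFNAR1, IFNAR2, IL18 and CCL25) and for 4122 probes in all. The limma fit paired by animal called 0 of the 10 at an adjusted p under 0.05, against 0.898% of all tested probes (37 of 4122). At an unadjusted p under 0.05 there was 1 member, a probe of IL18, and 3.78% of all tested probes, and the methods' t-test (paired, with a fold change over 1.5) called 0 members and 1.72% of all. The log2 changes of the 10 probes ran from -0.45 to 0.07, with a median of -0.11 against -0.01 over all tested probes, and their 95% intervals lay between a 0.54-fold and a 1.90-fold level.

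For MPLA against PBS limma again called 0 of the 10 member probes, against 0.995% of all tested probes (41 of 4122). None had an unadjusted p under 0.05, against 6.94% of all tested probes, and the methods' t-test called 0 members and 2.23% of all. Changes ran from -0.48 to 0.17 with a median of -0.15 (-0.09 over all tested probes), and the 95% intervals lay between 0.47-fold and 1.92-fold. For MPLA against LPS 0 of the 10 members and 0.0485% of all tested probes (2 of 4122) were called, 0 members and 4.61% of all had an unadjusted p under 0.05, and the methods' t-test called 0 members and 1.26% of all. Changes ran from -0.24 to 0.20, with a median of 0.03 (-0.08 over all tested probes), and the 95% intervals lay between 0.59-fold and 1.63-fold. A p above the threshold does not show that a level stayed the same, and these intervals give the range of sizes the data allow.

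On the same arrays 7 of the 8 tested cytokine genes left out by the rule were called higher with each agonist, as were 0.801% of all tested probes with LPS and 0.752% with MPLA. IL6, the fever and acute phase cytokine, rose by 4.47 ± 1.39 with LPS and 3.69 ± 1.43 with MPLA on the log2 scale (SD, n = 6; limma adjusted p 0.00054 and 0.0018). TNF rose by 1.42 ± 0.35 and 1.14 ± 0.33 (limma adjusted p 0.0021 and 0.0069). IL1A, IL1B, IL10, CSF2 and CXCL1 were the other called genes, and the neutrophil chemokine CXCL8 was not called. None of the 8 was called between MPLA and LPS. IL6, IL1A and CSF2 were well above background on 0 PBS arrays and were tested only through their agonist arrays. The sizes of their changes against PBS thus rest on PBS signals below detection. TNF, IL1B, IL10 and CXCL1 were well above background on all 6 arrays of each treatment. Among 40 other genes of cytokine induction and signalling, 12 had a named probe and 6 were tested. Of these, PTGS2, the inducible cyclooxygenase, was called with LPS (2.63 ± 0.97, limma adjusted p 0.0024) and INHBA, a subunit of activin A, with MPLA (1.504 ± 0.72, limma adjusted p 0.016). PTGS2 was at 1.76 ± 1.09 with MPLA (limma adjusted p 0.052). Neither gene was called between the agonists (limma adjusted p 0.84 for both). INHBA was well above background on 2 PBS, 3 LPS and 6 MPLA arrays, so it was tested only through its MPLA arrays. The second probes of both genes were not tested. CD14, IRAK4 and MIF, tested genes of the same list, were not called in any comparison, and TLR4 itself was detected on 1 array of each treatment.

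**Figure D2:**
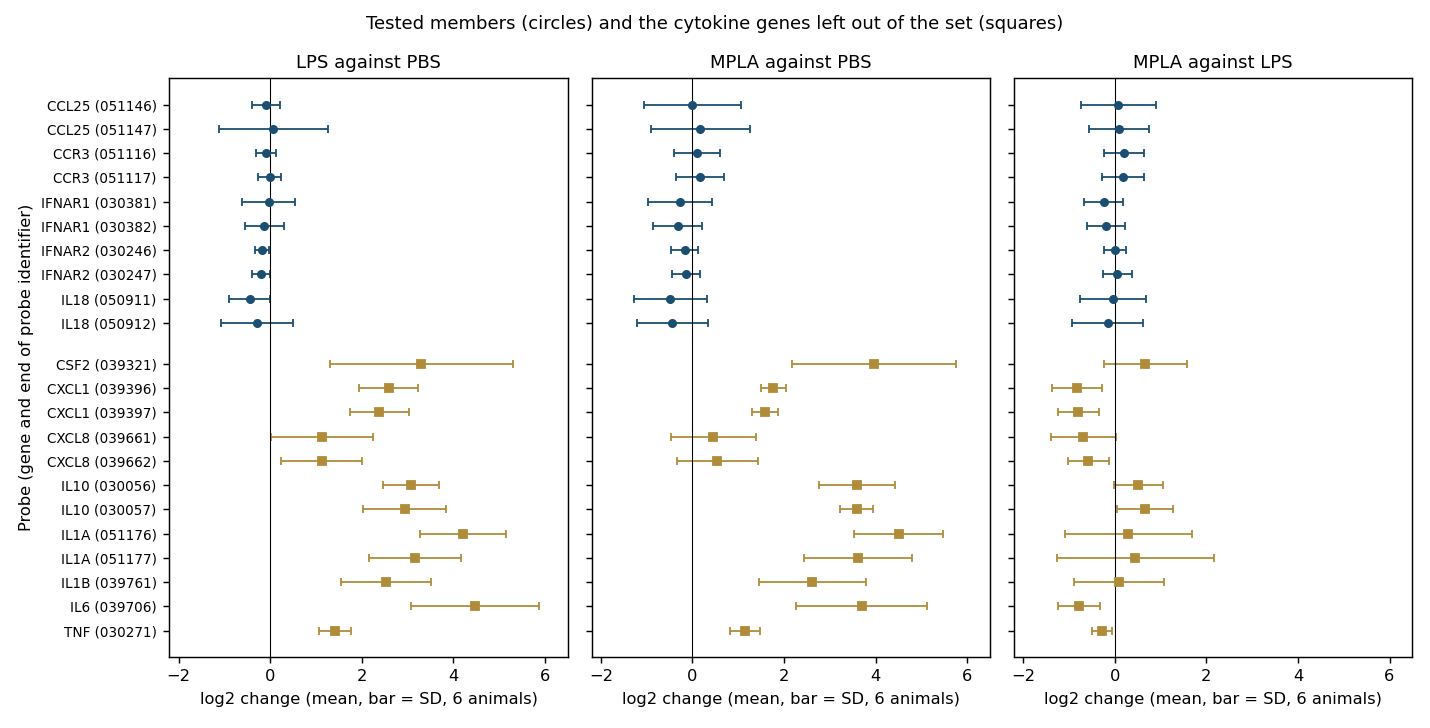
Mean log2 change of each probe in the 3 comparisons, with bars of 1 SD over 6 animals, for the 10 tested member probes (circles) and the 12 tested probes of the cytokine genes left out by the rule (squares). The members lie between -0.48 and 0.20 in all 3 panels, while the IL6 probe lies at 4.47 with LPS and 3.69 with MPLA against PBS. The IL6 signals with PBS were below detection.

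Both chains of the type I interferon receptor were bright on every array. IFNAR1, the chain that carries the kinase TYK2, had log2 levels of 5.16 (lowest), 6.05 (median) and 6.66 (highest) with PBS, 5.73, 5.84 and 6.19 with LPS, and 5.28, 5.64 and 6.27 with MPLA (probe A_70_P030381). The treatments overlapped throughout. Its change was -0.03 ± 0.58 with LPS (SD, n = 6; 95% interval -0.52 to 0.46; limma adjusted p 1.0) and -0.27 ± 0.69 with MPLA (-0.82 to 0.28; adjusted p 0.68). The second probe of IFNAR1, A_70_P030382, gave -0.12 ± 0.43 and -0.32 ± 0.53. With MPLA animal 80 had the lowest values of both probes relative to PBS, at -1.39 and -1.12, whereas animals 71Y and 20 were higher than with PBS by both.

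IFNAR2, the ligand-binding chain that carries the kinase JAK1, ran from 3.56 to 4.10 with PBS (median 3.72), 3.40 to 3.97 with LPS (3.56) and 3.27 to 4.26 with MPLA (3.45) by probe A_70_P030246. Its change with LPS varied least among animals of the 10 tested probes, at -0.18 ± 0.16 (SD, n = 6; 95% interval -0.49 to 0.14; limma adjusted p 1.0), lower in 5 of 6 animals. With MPLA it was -0.17 ± 0.30 (-0.54 to 0.19; adjusted p 0.69), lower in 4 of 6. The second probe gave -0.20 ± 0.20 and -0.14 ± 0.31. Neither agonist moved IFNAR2 past the threshold.

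Of the 5 tested genes, IL18 had the smallest unadjusted p against PBS with each agonist. Its protein is held ready as an inactive precursor in monocytes and epithelial cells and is released after cleavage by caspase-1, upon which it induces IFNG in T cells and NK cells. By probe A_70_P050911 the log2 level was -0.92 (lowest), 0.12 (median) and 0.64 (highest) with PBS, -1.30, -0.47 and 0.26 with LPS, and -1.78, -0.62 and 1.26 with MPLA. The medians with both agonists lay under that with PBS, but the ranges overlapped. The change with LPS was -0.45 ± 0.45 (SD, n = 6; 95% interval -0.88 to -0.02), lower in 5 of 6 animals, and did not pass the adjusted threshold (limma adjusted p 1.0). The change with MPLA was -0.48 ± 0.79 (-1.09 to 0.12; limma adjusted p 0.66), again lower in 5 of 6 animals. Animals 71Y, 51Y, 170, 80 and 65Y lay between -1.03 and -0.41 with MPLA, while animal 20 went the other way, at 1.08. Without animal 20 the change with MPLA was -0.80 and was called (limma adjusted p 0.028), in a fit that called 7.63% of 4218 tested probes and 3.65% as lower. The second probe, A_70_P050912, was lower in 4 of 6 animals with LPS (-0.28 ± 0.78) and in 5 of 6 with MPLA (-0.44 ± 0.78), with animal 20 at 0.88, and was not called with or without that animal. With MPLA the array of animal 20 was also at the low end of the first principal component. Over the 18 arrays, 3 from each animal, the Pearson r of the IL18 probes with this component was -0.77 and -0.85, given as a description, since these probes are among those the component was made from. The part of the component in the IL18 values was not tested. The monocyte gene CD14, which is no member, had log2 changes of -0.18 ± 0.32 and -0.32 ± 0.22 with LPS by its 2 probes and of -0.43 ± 0.48 and -0.48 ± 0.35 with MPLA. The monocyte gene LYZ had -0.11 ± 0.20 by each of its 2 probes with LPS and -0.17 ± 0.43 and -0.17 ± 0.47 with MPLA. Neither gene was called, and their part in the IL18 values was not tested.

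**Figure D3:**
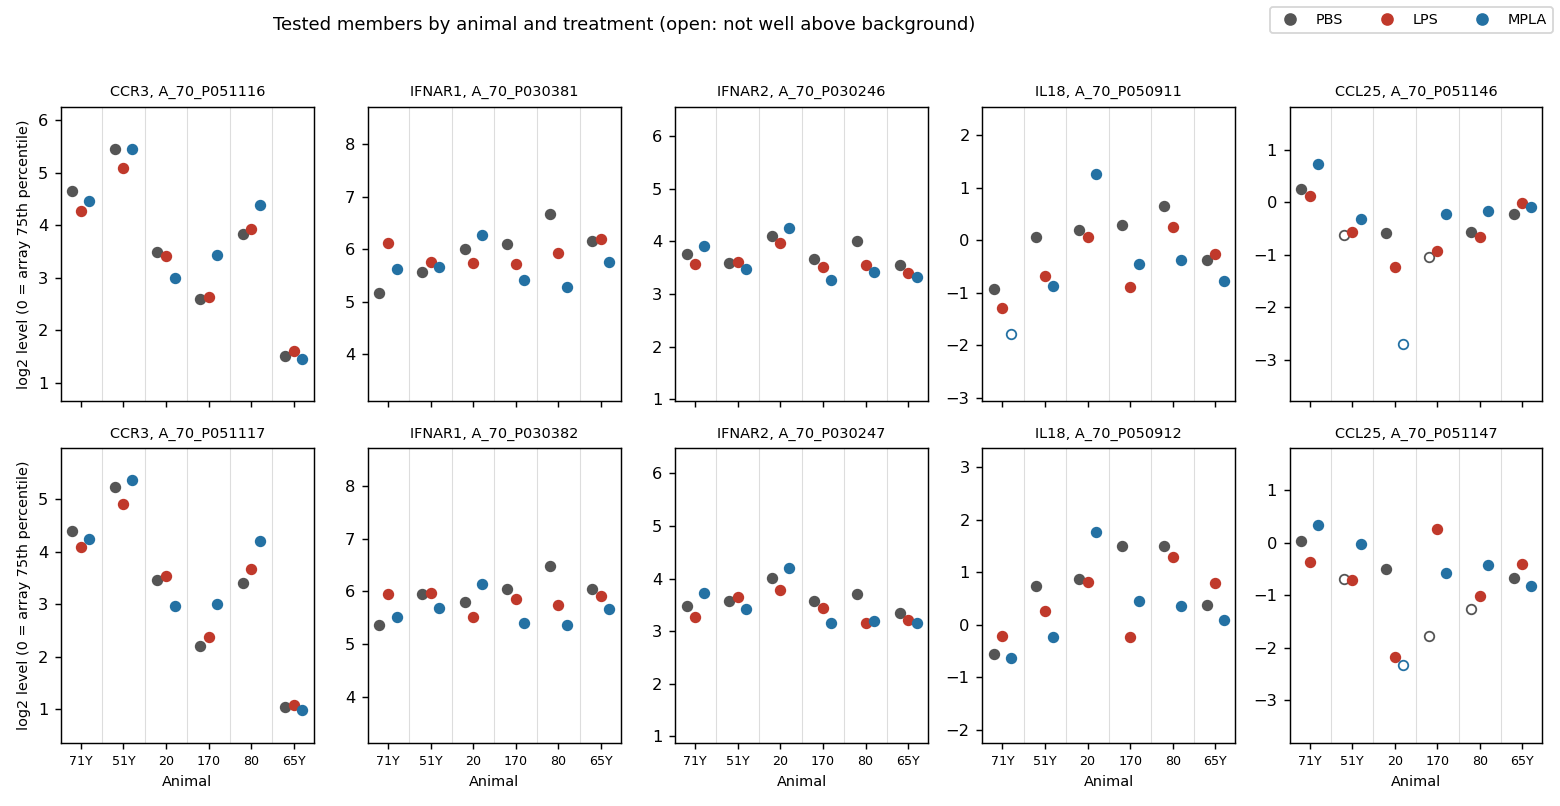
Log2 levels of the 10 tested member probes by animal (x axis) and treatment (grey PBS, red LPS, blue MPLA), with open circles where the probe was not well above background; all panels span the same number of log2 units. CCR3 differs between animals and little between treatments, IFNAR1 and IFNAR2 stay within narrow bands, and IL18 is highest with MPLA in animal 20 but not in the other animals.

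CCR3, the eotaxin receptor of eosinophils and basophils, was detected on all 18 arrays. By probe A_70_P051116 its log2 level was 1.51 (lowest), 3.66 (median) and 5.46 (highest) with PBS, 1.60, 3.67 and 5.10 with LPS, and 1.45, 3.91 and 5.44 with MPLA. Each treatment thus spanned nearly the same wide range. The paired changes were small, at -0.10 ± 0.22 with LPS (SD, n = 6; 95% interval -0.43 to 0.24; limma adjusted p 1.0), 0.11 ± 0.50 with MPLA (-0.34 to 0.55; adjusted p 0.82) and 0.20 ± 0.43 for MPLA against LPS (-0.24 to 0.64; adjusted p 0.84). The second probe, A_70_P051117, gave -0.01 ± 0.25, 0.17 ± 0.53 and 0.18 ± 0.45.

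The spread of CCR3 lay between animals. Averaged over the 3 treatments, the level by probe A_70_P051116 was 5.33 ± 0.21 in animal 51Y, 4.46 ± 0.19 in 71Y, 4.05 ± 0.29 in 80, 3.30 ± 0.26 in 20, 2.89 ± 0.48 in 170 and 1.52 ± 0.08 in 65Y (SD, n = 3 arrays). Animal 51Y was the highest and animal 65Y the lowest with each treatment and by both probes, and their means differed 14.0-fold (17.4-fold by the second probe). The order between these ends was less firm, since animals 20 and 170 changed places with MPLA by both probes, and animals 80 and 20 with PBS by the second. Differences between animals accounted for 96.6% and 96.8% of the variance of the 2 CCR3 probes over the 18 arrays and treatments for 0.44% and 0.39%, where the medians over all tested probes were 60.1% and 5.36%. By share of variance between animals the CCR3 probes ranked 29 and 27 of 4122. The moderated F test of limma for animal gave adjusted p values of 6.7e-07 and 4.4e-07. This test, chosen after the values were seen, passed for 52.5% of all tested probes and for 5 of the 10 member probes, so that passing it is common on these arrays.

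The differences in CCR3 also held within slides. On PBS arrays that shared a slide, animal 71Y exceeded animal 170 by 2.07, animal 51Y exceeded animal 20 by 1.97 and animal 80 exceeded animal 65Y by 2.32 on the log2 scale (2.19, 1.77 and 2.36 by the second probe). Over 10 other settings, which included 3 other ways of scaling or background correction, floored values and each animal left out, the share of variance between animals stayed at 72.3% to 98.1% for the first probe and 75.03% to 97.7% for the second, and all passed the test (highest limma adjusted p 0.013 and 0.0097). The fold between the highest and the lowest animal was less stable, at 8.19-fold and 9.20-fold with normexp, 5.44-fold and 6.199-fold without animal 65Y and 7.67-fold and 9.19-fold without animal 51Y. The labels name no second blood draw of any animal, so these data do not tell a lasting difference between animals from one of that day. No gene particular to eosinophils was on the marker lists, and the number of eosinophils was not measured here.

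The other tested members had lower shares. IFNAR1 had 20.1% and 9.74% of its variance between animals (limma adjusted p of the F test 0.69 and 0.93), at ranks 4000 and 4092 of 4122, and its animal means spanned 1.32-fold and 1.20-fold. These low shares depended on the scaling, and reached 47.6% for the first probe with quantile normalization, while normexp widened the spans to 2.14-fold and 1.91-fold. IFNAR2 had 68.6% and 67.2% (adjusted p 0.068 and 0.060) over a span of 1.60-fold and 1.70-fold. Both probes passed with quantile normalization (adjusted p 0.014 and 0.020), the second also without animal 170 (0.034). Without animal 20 the IFNAR2 shares fell to 35.8% and 29.6% (adjusted p 0.53 and 0.63), over spans of 1.25-fold and 1.24-fold. With normexp these shares were also lower (adjusted p 0.28 and 0.24), over wider spans of 2.28-fold and 2.24-fold. IL18 had 65.9% and 59.1% (adjusted p 0.010 and 0.032), over spans of 3.58-fold and 3.08-fold, and both probes lost the call when animal 71Y, the lowest, was left out (adjusted p 0.15 and 0.30), the first also with normexp (0.17) and the second without animal 80 (0.052). The IL18 spans were 1.63-fold and 1.81-fold with normexp and 2.003-fold and 1.86-fold without animal 71Y. CCL25 had 65.0% and 47.0% (adjusted p 0.025 and 0.13), over spans of 3.65-fold and 3.17-fold that were 1.62-fold and 1.65-fold with normexp and 2.14-fold and 1.86-fold without animal 20. Its first probe lost the call with normexp (adjusted p 0.057) and without animal 71Y (0.13), and its second gained it with floored values (0.023) and without animal 170 (0.035).

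**Figure D4:**
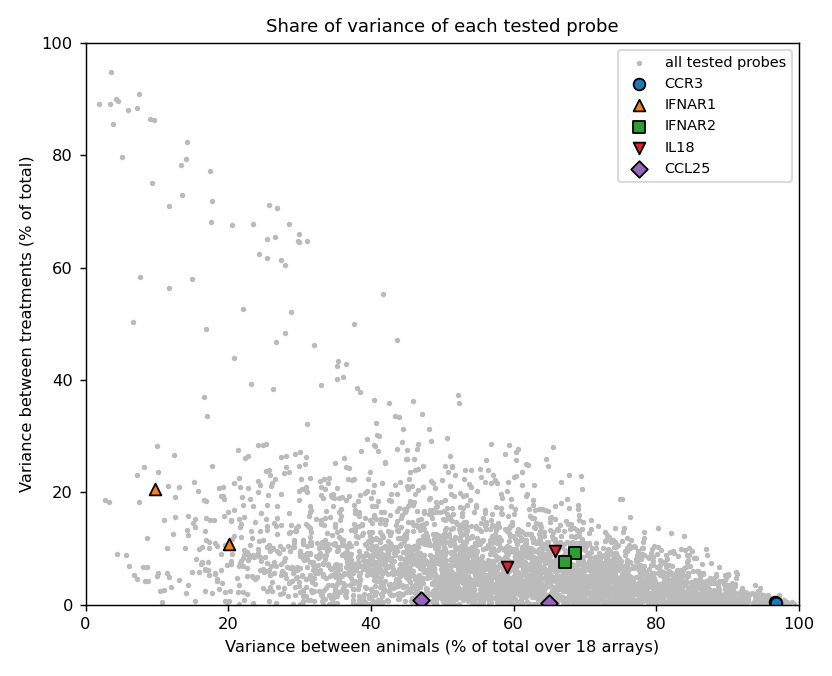
Share of the variance over 18 arrays that lies between animals (x axis, %) and between treatments (y axis, %) for each of the 4122 tested probes (grey) and the 10 member probes (symbols). Both CCR3 probes sit at the lower right, at 96.6% and 96.8% between animals, and the IFNAR1 probes at the left, at 20.1% and 9.74%.

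CCL25, the thymus and gut chemokine that is the ligand of CCR9, was measured close to the limit of detection. Probe A_70_P051146 was well above background on 4 PBS, 6 LPS and 5 MPLA arrays and probe A_70_P051147 on 3, 6 and 5, and the gene was tested through its LPS arrays, so its detection does not support a difference. The log2 level of the first probe was -1.04 (lowest), -0.57 (median) and 0.25 (highest) with PBS, -1.23, -0.61 and 0.11 with LPS, and -2.70, -0.20 and 0.73 with MPLA. The mean change was -0.08 ± 0.31 with LPS (SD, n = 6; 95% interval -0.44 to 0.28; limma adjusted p 1.0) and the fitted MPLA level was 0.999 times that with PBS (SD 1.06 log2 units; interval -0.76 to 0.76; adjusted p 1.0). With MPLA animal 20 was at -2.12 relative to PBS and the other 5 at 0.12 to 0.81. The MPLA signal of animal 20 (-2.70) was not well above background, where the limit of detection was -1.73. With PBS animal 20 was detected at -0.58, so its signal was lower with MPLA by an amount that was not measured. Some of the other 5 changes rest on PBS signals below detection, and their sizes were not measured either. The second probe did not give the same split, and its MPLA signal in animal 20 was also below detection. With MPLA animal 20 was at -1.83, 65Y at -0.15 and the other 4 at 0.30 to 1.19. With LPS animal 20 was at -1.66 and animal 170 at 2.03, the latter from a PBS signal below detection. The mean changes of this probe were 0.17 ± 1.08 with MPLA and 0.07 ± 1.19 with LPS. Neither probe of CCR9, its receptor, was detected on any array.

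CXCR4 and IFNG were not tested under the filter and are given by array. CXCR4, the receptor of CXCL12 that holds leukocytes in the bone marrow, stood out by detection among the members not tested. It was the 1 such gene detected on at least 3 more arrays of an agonist than of PBS. The second probe of CCL25, which was tested, also met this margin, with LPS. Both of its probes were well above background on 1 PBS array, 1 LPS array and 4 MPLA arrays. Of the 30 member probes not tested, these 2 met that margin for MPLA (0.634% of all 10886 probes not tested did) and 0 for LPS (0.257%). By probe A_70_P016871 the detected levels were 3.11 with PBS, -1.04 with LPS and 2.81 with MPLA in animal 71Y, and 0.98 in 51Y, 1.44 in 80 and -0.14 in 65Y with MPLA. By the second probe, A_70_P016872, they were 2.88, -0.72 and 2.65 in animal 71Y, and 0.84, 1.35 and -0.78 in the others. All other arrays lay between -4.03 and -1.14 by either probe and were not well above background.

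Probes detected on 4 of 6 arrays of a treatment were also admitted. CXCR4 entered this wider filter only through its MPLA arrays, and most of its PBS and LPS values were below detection, so its changes are a description of the signals and support no difference. The log2 change of CXCR4 was 1.69 ± 1.97 with MPLA against PBS (SD, n = 6; 95% interval 0.29 to 3.09; limma adjusted p 0.69) and by 1.91 ± 2.14 against LPS (0.39 to 3.42; adjusted p 0.86). The second probe gave 1.55 ± 1.75 and 2.07 ± 1.998, and the change with LPS was -0.22 ± 2.13 and -0.52 ± 1.57, or 0.57 and 0.10 without animal 71Y. With floored values the changes with MPLA were 0.76 and 0.63 against PBS and 1.65 and 1.42 against LPS. None was called, against 0.641% of the 4992 probes so tested with LPS, 0.741% with MPLA and 0.02% between the agonists. Without animal 20 the second probe passed for MPLA against LPS (2.75, limma adjusted p 0.039), as did 0.661% of all probes, while the first did not (adjusted p 0.11), and the same choice by the filter lies behind that call. Without animal 71Y, CXCR4 was detected on 0 of 5 PBS, 0 of 5 LPS and 3 of 5 MPLA arrays. The 5 arrays highest on the first principal component were all among the 6 with CXCR4 detected, and over the 18 arrays the Pearson r of its probes with the component was 0.85 and 0.85, again as a description. The 6 arrays also had 75th percentiles of 64.5 to 124.2 intensity units, against 24.8 to 111.0 on the other 12. The part of these array-wide differences in the CXCR4 values was not tested. CXCL12, its ligand, was not detected.

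IFNG, the interferon of T cells and NK cells that activates macrophages, was detected on 2 PBS, 4 LPS and 4 MPLA arrays by probe A_70_P039611 and on 3, 4 and 4 by probe A_70_P039612. By the first probe the level ran from -1.89 to -0.14 with PBS (median -1.09), -1.35 to -0.66 with LPS (-0.92) and -1.65 to -0.34 with MPLA (-1.26), so the treatments overlapped. With the wider filter its change was 0.16 ± 0.77 with LPS (SD, n = 6; 95% interval -0.46 to 0.78; limma adjusted p 1.0) and 0.04 ± 0.43 with MPLA (-0.40 to 0.47; adjusted p 0.94). The second probe gave 0.22 ± 0.55 and 0.02 ± 0.32. Its highest levels were 0.05 and 0.03, on the LPS arrays of animals 51Y and 65Y.

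**Figure D5:**
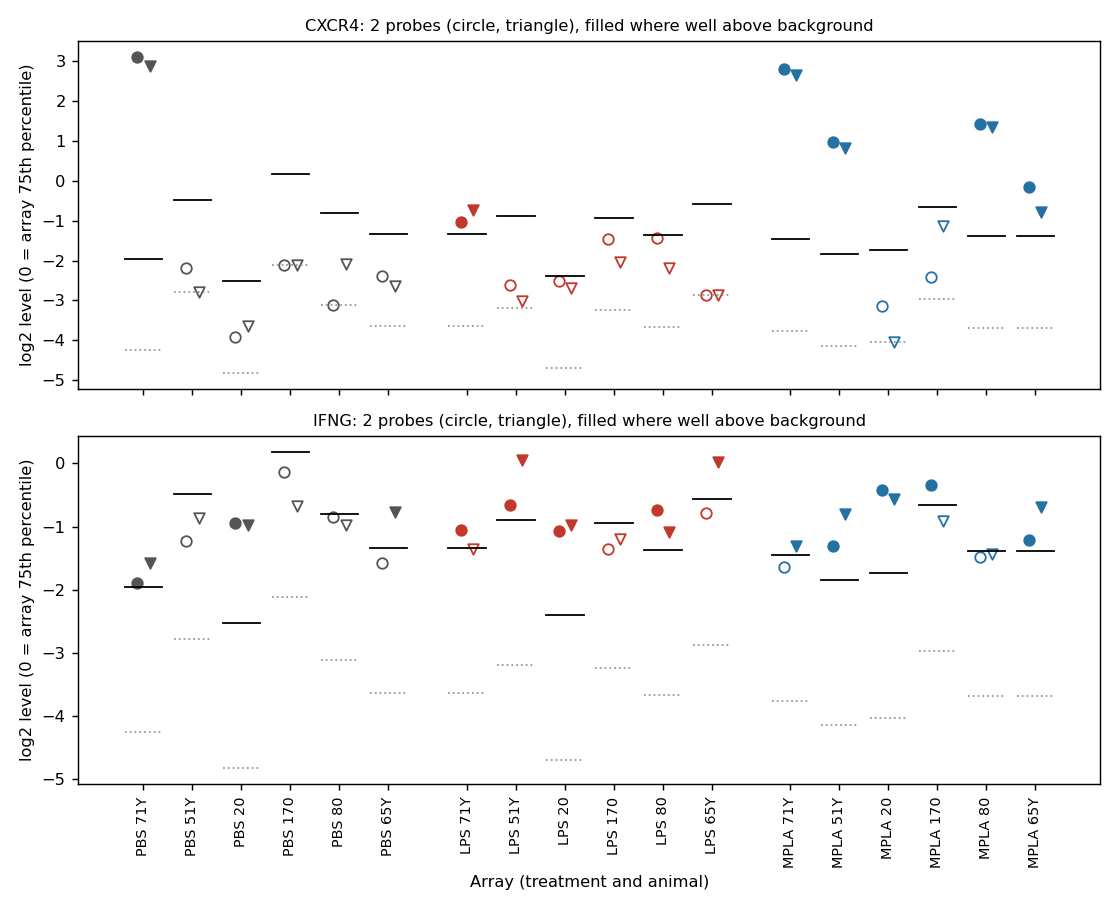
Log2 levels of CXCR4 (top) and IFNG (bottom) on the 18 arrays, by treatment and animal, with 1 symbol for each of 2 probes and filled symbols where the probe was well above background. Solid lines mark the lowest level that was well above background on that array and dotted lines the software's floor; CXCR4 lies above the solid line on 4 MPLA arrays, 1 PBS array and 1 LPS array, while IFNG lies above it on some arrays of each treatment, furthest on those of animal 20.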

How the data were processed

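Labelled RNA from whole blood of 6 sheep under 3 treatments was hybridised to 18 single-colour Agilent sheep arrays. The authors deposited the scanner output of Feature Extraction 11.5.1.1, and the values used were its background-subtracted processed intensities, with signals too low to measure replaced by a floor on each array. A deposited table of ratios, each array divided by a number near its own 75th percentile (a scale worked out here against the intensities), served as an alternative.

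Spots were averaged by probe, and log2 intensity minus log2 of the array's 75th percentile was used. Probes well above background on all 6 arrays of at least 1 treatment were tested (4122 of 15008). Each pair of treatments was fitted on its 12 arrays with limma 3.58.1 (R 4.3.3; tables in Python 3.11.15 with pandas 2.3.3), with animal as a fixed block, two-sided, and p-values were adjusted by Benjamini-Hochberg over all tested probes (called: adjusted p under 0.05). The fit was tested on simulated data. Animals are named in the sample titles, and deviations from treatment means correlated between arrays of an animal (mean 0.593, lowest of 18 pairs 0.132). Probes were named from RefSeq accessions through the gene table of assembly ARS-UI_Ramb_v3.0, used for names only, and 1265 of 2200 accession-bearing probes matched. A gene whose probe carries no matched accession is not a member.

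Members, gene lists and tests were chosen with earlier results of these data known. By rule, values by array are given for members called in any comparison, the 12 tested probes of smallest p (10 were tested), members not tested but detected on at least 3 more or fewer arrays of an agonist than of PBS, and members detected on all 18 arrays. IFNG, CCL25 across animals and the rarely detected members, as well as the test of animal and the principal component, were added after values were seen. Alternatives covered normalization, background correction (normexp, offset 50, on median spot signal), the authors' ratios, filters, floored values, blocks, the methods' t-test, outlier spots and each animal left out. No probe was saturated, and the number of arrays limits the precision. The human samples of the study were not analysed here. Not every gene of the lists is reported by name here.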

Additional observations from a re-analysis of the deposited data

Results flagged for a closer look

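Each treatment's 6 levels, and each comparison's 6 paired changes, were examined for 1 value far from the others, by the 95% critical value of Dixon's ratio of the gap to the whole range, in the members tested or admitted by the wider filter. Of 84 such groups, 10 had one, where chance gives about 1 in 20 for a single group. The groups overlap, since changes are taken from the same levels and probes of a gene are counted separately. An excess over chance therefore cannot be judged from this count.

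In 5 of the 10, the distant value belonged to animal 20 on its MPLA array. CCL25 (probe A_70_P051146) was at a log2 level of -2.70 there, against -0.32 to 0.73 in the other animals. This signal was not well above background, since the limit of detection on that array was -1.73. The sizes of this level and of the changes taken from it were therefore not measured. The log2 change of CCL25 with MPLA was -2.12 against PBS (0.12 to 0.81 in the others) and -1.47 against LPS (-0.09 to 0.69). The log2 change of IL18 (probe A_70_P050911) against PBS was 1.08 in animal 20 and -1.03 to -0.41 in the others. That of IFNAR1 (probe A_70_P030382) against LPS was 0.62 in animal 20 and -0.46 to -0.25 in the others.

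The other 5 belonged to animal 71Y, 3 of them to its PBS array. CXCR4 was at log2 levels of 3.11 (probe A_70_P016871) and 2.88 (probe A_70_P016872) there. The other PBS arrays lay between -3.92 and -2.12 by the first probe and between -3.63 and -2.09 by the second. IFNG (probe A_70_P039612) was at -1.58, against -0.98 to -0.68 on the other PBS arrays. It was well above background in animal 71Y, where the limit of detection was -1.96. On the PBS arrays of animals 51Y, 170 and 80, with limits of -0.49, 0.18 and -0.81, it was not. The log2 change of CXCR4 with LPS against PBS was -4.15 and -3.60 in animal 71Y by the first and second probe. In the other animals it lay between -0.49 and 1.68 by the first and between -0.24 and 0.94 by the second, and their CXCR4 signals were not well above background with either treatment.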

How the results depend on the processing

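The count of called members was 0 in all 3 comparisons under every alternative except 1: without animal 20, IL18 was called for MPLA against PBS, so that leaving out an animal gave 0 to 1 members in that comparison. Without the replicate block for animal the count of called members was also 0, while all calls went from 37 to 29 for LPS, from 41 to 29 for MPLA and from 2 to 0 between them. With LPS all calls moved most under normexp, to 2, so the 0 members there say little. With MPLA they went to 322 without animal 20. Between the agonists they went to 31 without animal 20 and to 52 with the methods' t-test, whose p is not adjusted. Detection counts moved with the flag and the number of arrays asked for. The software's weaker flag (positive and significant) gave 13 probes on 6 of 6 PBS arrays and 14 on MPLA arrays, 4 of 6 MPLA arrays gave 14, and 1 of 6 arrays gave 21 with PBS, 18 with LPS and 17 with MPLA.

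Of 744 alternative values of 42 changes of 14 member probes, 687 kept their direction and side of the threshold, 55 turned sign with none of them called (at most 0.57 in size), and 2 became called (IL18 and CXCR4, given above with animal 20 left out, CXCR4 being admitted only through its MPLA arrays). The causes were not tested. With quantile normalization the turned values were 0.0515 for CCL25 (A_70_P051146) with MPLA, 0.0284 for CCR3 (A_70_P051117) with LPS and -0.0132 for IFNG (A_70_P039611) with MPLA. With normexp they were 0.10 (CCL25 A_70_P051146), -0.0159 (IFNG A_70_P039612) and 0.0131 (IFNAR2 A_70_P030247) with MPLA, -0.0523 for CCL25 (A_70_P051147) with LPS, and 0.31 and 0.36 for both IFNAR1 probes between MPLA and LPS. The authors' table gave 0.0561 for CCL25 (A_70_P051146) with MPLA and, with LPS, 0.0462 for CCR3 (A_70_P051117) and 0.0230 for IFNAR1 (A_70_P030381). Floored values gave -0.36 and -0.16 for CCL25 (A_70_P051147) with LPS and MPLA, -0.14 and -0.16 for both IFNG probes with MPLA, and 0.0209 for IL18 (A_70_P050911) between agonists. Slide as a second block gave -0.0422 for CCL25 (A_70_P051146) between agonists and, with MPLA, -0.0336 for CCL25 (A_70_P051147) and -0.0430 for CCR3 (A_70_P051116). Leaving out flagged spots gave 0.0033 for CCL25 (A_70_P051146) with MPLA and 0.00012 for CCR3 (A_70_P051117) with LPS.

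Leaving out each animal gave these ranges where a sign turned. With LPS they were -0.14 to 0.0324 and -0.32 to 0.42 for the 2 CCL25 probes, -0.0652 to 0.0514 for CCR3 (A_70_P051117), -0.59 to 0.57 and -0.81 to 0.10 for CXCR4, -0.23 to 0.11 for IFNAR1 (A_70_P030381) and -0.425 to 0.0050 for IL18 (A_70_P050912). With MPLA they were -0.16 to 0.42 and -0.0336 to 0.57 for CCL25, -0.0430 to 0.22 for CCR3 (A_70_P051116), and -0.0628 to 0.17 and -0.0581 to 0.12 for IFNG. Between MPLA and LPS they were -0.0422 to 0.39 and -0.0237 to 0.28 for CCL25, -0.35 to 0.00042 for IFNG (A_70_P039611), -0.0613 to 0.0572 and -0.0209 to 0.13 for IFNAR2, -0.28 to 0.0880 for IL18 (A_70_P050911) and -0.37 to 0.0018 for IL18 (A_70_P050912). The lowest detectable signal, which differed between arrays from 13.6 to 36.2 intensity units, limits the values of CCL25, CXCR4 and IFNG.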
